A study of Mus musculus with 14 samples.

Results

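Oxidative phosphorylation genes were followed in the RNA of whole spinal cord (WSC). They were chosen by symbol alone, as genes named Ndufa, Ndufb, Ndufc, Ndufs or Ndufv, Sdha to Sdhd, Uqcr, Cox4 to Cox8, or Atp5, which gave 85 of the 19215 genes counted in both libraries. The cassette exons of these genes, internal exons that a transcript can either include or skip, made up 49 of the 13189 listed, in 35 of the genes. Of the 85 genes, 36 belong to complex I, 4 to complex II, 7 to complex III, 21 to complex IV and 17 to complex V. By their known roles 79 encode subunits and 6 do not, although their symbols match.

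The WSC transcriptome was measured in 2 poly(A)-selected RNA-seq libraries, 1 from a male and 1 from a female mouse. Both animals were 12 weeks old by the labels, had a B6/SJL background and carried Tg(SOD1)2Gur/J, a transgene of wild-type SOD1, so that neither library comes from a mouse without it. The 12 CLIP samples of the series were not analysed here. Levels are the authors' RPKM, reads that is, read counts corrected for exon length and for library size. The male library held 72006019 reads on genes and the female library 65625173, and errors are SDs over the 2 libraries (n = 2).

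The mitochondrial respiratory chain passes electrons from NADH (complex I) and succinate (complex II) through complex III to cytochrome c and then to oxygen (complex IV). The protons pumped on the way drive ATP synthase (complex V), a rotary enzyme. Most subunits are encoded in the nucleus, a small set by mitochondrial DNA, which the symbols used here do not cover. Neurons rely on this chain for most of their ATP. Several complex IV subunits have separate genes for muscle, testis or lung, and the ring of ATP synthase that turns in the membrane is encoded by a small family of genes for the same mature protein.

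Spinal cord markers were found in both libraries at very unequal levels. The 12 neuronal and positional genes had a median of 41.7 RPKM. The highest was the general neuronal gene Snap25, at 2029 RPKM in the male and 2084 RPKM in the female library. Among the motor neuron genes Chat was at 9.20 and 10.4 RPKM, and Isl1 was the lowest of the 12 at 0.647 and 0.663 RPKM. The 11 glial genes had a median of 155 RPKM. The homeobox gene Hoxc8, which marks the trunk, was at 42.4 and 49.4 RPKM, and 1 of the 5 forebrain genes reached a mean of 1 RPKM. The 3 peripheral nerve genes summed to only 0.448 and 0.577 RPKM. Of the 11 neuronal and positional genes tested, 10 had the larger value in the female library, and 3 were past 25%, the motor neuron genes Slc5a7 (28.0 and 46.9 RPKM) and Mnx1 (0.935 and 1.92 RPKM) in the female and the positional gene Hoxc10 (25.2 and 18.5 RPKM) in the male. Blood transcripts differed between the libraries, since the 5 blood genes summed to 456 RPKM in the male and 179 RPKM in the female library, and 4 of the 4 with a mean of at least 1 RPKM were higher in the male by at least 25%. Of the 11940 genes with a mean of at least 1 RPKM, 48.7% had the larger value in the female library. By at least 25%, 6.16% of these genes were higher in the female and 8.86% in the male library, 15.0% in either direction. The part of the marker differences in the results that follow was not tested.

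Because only reads with an unambiguous position were counted, a member that shares its sequence with a processed copy can lose reads, though the loss was not measured. The sequences that carry this point are coding stretches of 74 nt, the length of a trimmed read, printed 5′ to 3′ in lower case from the GENCODE transcripts:
Atp5l: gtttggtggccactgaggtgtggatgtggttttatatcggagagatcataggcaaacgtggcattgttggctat
Atp5g2: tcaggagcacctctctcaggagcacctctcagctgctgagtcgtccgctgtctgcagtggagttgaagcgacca
Ndufb4: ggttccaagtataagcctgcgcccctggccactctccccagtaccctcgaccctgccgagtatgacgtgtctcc
The Atp5l stretch, from subunit g of ATP synthase, occurs at 8 places in the NCBIM37 (mm9) genome, of which its own gene is chr9:44721460-44721533 on the minus strand and another is Atp5l-ps1 at chr7:69621421-69621494. The Atp5g2 stretch, from a ring subunit gene, occurs at 4 places, 1 in its own gene on chromosome 15 and the others including annotated pseudogenes on chromosomes 7 and 17. The Ndufb4 stretch, from an accessory subunit of complex I, occurs at 3 places.

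Oxidative phosphorylation genes were among the most abundant transcripts of the cord. The median member stood at 107 RPKM, against 10.3 RPKM for the 11940 genes with a mean of at least 1 RPKM, and 43 members but only 552 of all genes were above 100 RPKM. Together the 85 genes took 1.35% (male) and 1.38% (female) of the reads on genes. Within the family the levels ran from 944 RPKM to 0, and 8 members were among the 100 most abundant genes. The 2 libraries gave nearly the same order, with a Spearman's rho of 0.990 across the 85 genes, which are not independent replicates and share both libraries.

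**Figure D1:**
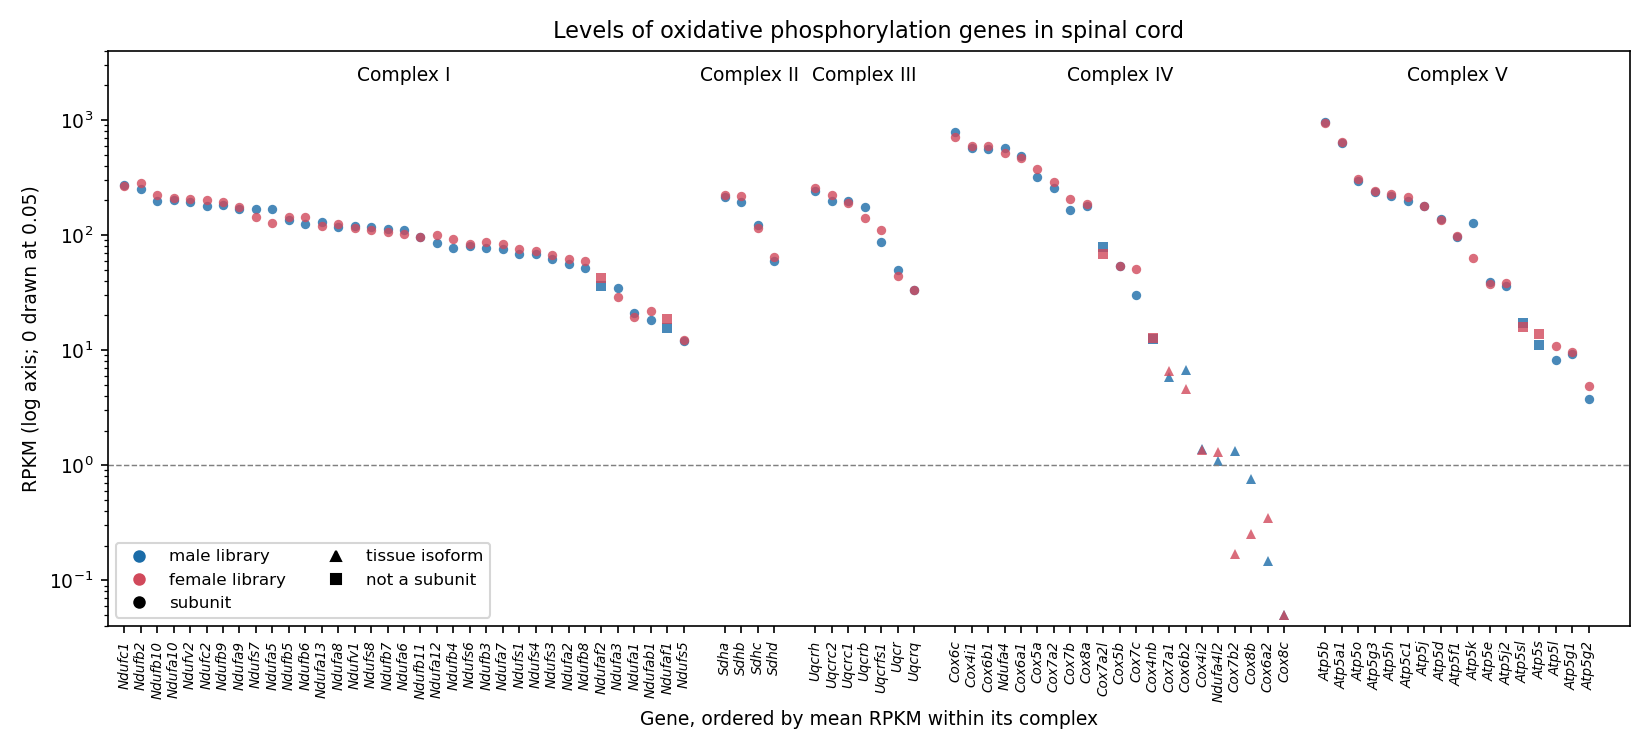
RPKM on a log axis of the oxidative phosphorylation genes in the male (blue) and the female (red) library, grouped by complex and ordered by mean; circles are subunits, triangles tissue isoforms, squares genes that are not subunits, and a value of 0 is drawn at 0.05. The subunit genes of complex I run from 268 to 12.2 RPKM, and the tissue isoforms of complex IV hold the lowest levels.

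The catalytic F1 head of ATP synthase held the highest and some of the lower levels. Atp5b, the beta subunit that carries the catalytic sites, had 955 RPKM in the male and 933 RPKM in the female library (944 ± 15.4) and ranked 12 among all genes. Atp5a1, the alpha subunit, had 627 and 642 RPKM. The remaining parts of the F1 head followed at lower levels, with the rotating shaft Atp5c1 at 205 ± 10.8 RPKM, Atp5d at 137 ± 1.77 and Atp5e at 38.4 ± 1.26. Thus the genes of the F1 head were at unequal levels, and each gap between these 5 neighbours was larger than the spread over the libraries. In the stator, the stalk that holds the head still, Atp5o stood at 301 ± 9.42 RPKM, Atp5h at 224 ± 7.38, Atp5j at 179 ± 0.467 and Atp5f1 at 97.6 ± 1.75. The place of Atp5f1 depends on the length used. On the shortest transcript with the full coding sequence it would have 212 and 217 RPKM, where Atp5h would have 203 and 213 and Atp5j 206 and 206. The lowest subunit gene of complex V was Atp5g2, with 3.73 and 4.87 RPKM. The median over the 15 subunit genes of the complex was 138 RPKM in the male and 136 in the female library.

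Complex IV, cytochrome c oxidase, split into abundant and nearly silent genes. Cox6c had 782 and 709 RPKM and was the highest subunit gene of the complex. Cox4i1, Cox6b1 and Ndufa4 followed at 585 ± 12.7, 577 ± 31.3 and 545 ± 36.2 RPKM, and neighbours in this order lay no farther apart than the larger SD of the pair. Ndufa4 was first named as a complex I subunit and is now placed in complex IV. Cox6a1 stood at 480 ± 11.3 RPKM, Cox5a at 347 ± 41.7, Cox7a2 at 272 ± 24.7, Cox7b at 186 ± 27.2 and Cox8a at 182 ± 4.92. Below them Cox5b, a zinc-binding subunit, was at 53.8 ± 0.482 RPKM and Cox7c at 40.5 ± 14.9. The median over all 19 subunit genes was 53.8 RPKM, and over the 11 that remain without the 8 tissue isoforms it was 347 RPKM, the highest of the complexes.

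The levels of complex I covered a narrower range than those of complexes IV and V. Its 34 subunit genes had a median of 115 RPKM in the male and 109 RPKM in the female library, and 19 of them were above 100 RPKM. Ndufc1 was the highest at 268 ± 4.80 RPKM and Ndufb2 at 266 ± 23.1 could not be told from it. The place of Ndufc1 depends on the length used, since on its shortest transcript with the full coding sequence, of 1249 nt in place of 418, it would have 90.8 and 88.5 RPKM and Ndufb2 would be the highest. Among the catalytic subunits of nuclear origin, Ndufv2 of the NADH module had 201 ± 9.95 RPKM. Ndufs7, which carries the last iron-sulfur cluster, had 156 ± 17.1 RPKM, Ndufv1, which binds NADH and FMN, 118 ± 4.26, and Ndufs8 113 ± 5.01. The largest subunit, Ndufs1, stood at 71.5 ± 4.98 RPKM and Ndufs3 at 64.5 ± 2.91. The lowest subunit gene was Ndufs5, with 12.1 and 12.3 RPKM, and Ndufab1, the mitochondrial acyl carrier protein, had 18.3 and 22.0 RPKM.

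Complex II and complex III lay in the same range. In complex II the succinate-oxidising flavoprotein Sdha had 219 ± 8.46 RPKM and the iron-sulfur subunit Sdhb 206 ± 19.4, and these did not differ beyond their spread. The membrane anchors were lower, Sdhc at 119 ± 3.86 RPKM and Sdhd at 62.4 ± 3.37. In complex III the hinge protein Uqcrh was the highest at 249 ± 10.5 RPKM, and the large matrix subunits Uqcrc2 and Uqcrc1 had 210 ± 18.7 and 195 ± 5.44 RPKM. The Rieske iron-sulfur subunit Uqcrfs1 was at 87.6 and 112 RPKM, and Uqcrq was the lowest at 33.1 ± 0.153 RPKM. The medians were 163 RPKM for complex II and 158 RPKM for complex III.

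In every subunit family with tissue isoforms, the widely expressed gene held nearly all of the RPKM. Cox4i1 was 414-fold and 439-fold above Cox4i2, the lung isoform, in the male and the female library. Cox6a1 stood 3308-fold and 1361-fold above the muscle isoform Cox6a2, which rested on 7 and 15 reads. Cox8a was 233-fold and 737-fold above the muscle isoform Cox8b (20 and 6 reads), and the testis isoform Cox8c had 0 reads in both, which allows up to 0.0875 and 0.0960 RPKM if 3 reads are taken as the limit. Limits of this kind cover counting error only. The gap was smaller for Cox7a2 over the muscle isoform Cox7a1, at 43.6-fold and 44.3-fold, since Cox7a1 reached 5.84 and 6.54 RPKM. Cox6b1 exceeded the testis isoform Cox6b2, at 6.66 and 4.63 RPKM, by 83.4-fold and 129-fold. Ndufa4 was 527-fold and 395-fold above Ndufa4l2, a paralog induced by low oxygen.

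The testis isoform Cox7b2 was uneven between the libraries, at 1.33 RPKM in the male library from 52 reads and at 0.168 RPKM in the female from 6 reads, while Cox7b had 167 and 205 RPKM. Its mean was under 1 RPKM, so the difference was not among those counted below. The muscle isoforms can be set beside skeletal and heart muscle markers. Only 2 of those 12 genes reached a mean of 1 RPKM, their summed level was 7.76 RPKM in the male and 5.47 in the female library, and the fast myosin gene Myh4 was at 0 in both. In the brown adipocyte list, where Cox7a1 and Cox8b are also known to be expressed, the defining gene Ucp1 was at 0 in both libraries and the 3 genes summed to 3.52 and 3.35 RPKM. Cox4i2 and Ndufa4l2 are also known from vessel wall cells, and the 8 smooth muscle and pericyte genes summed to 33.4 and 31.0 RPKM, 5 of them reaching a mean of 1 RPKM. The part of such cells in the isoform levels was not tested, and in whole tissue few cells of a type and little RNA per cell cannot be told apart.

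**Figure D2:**
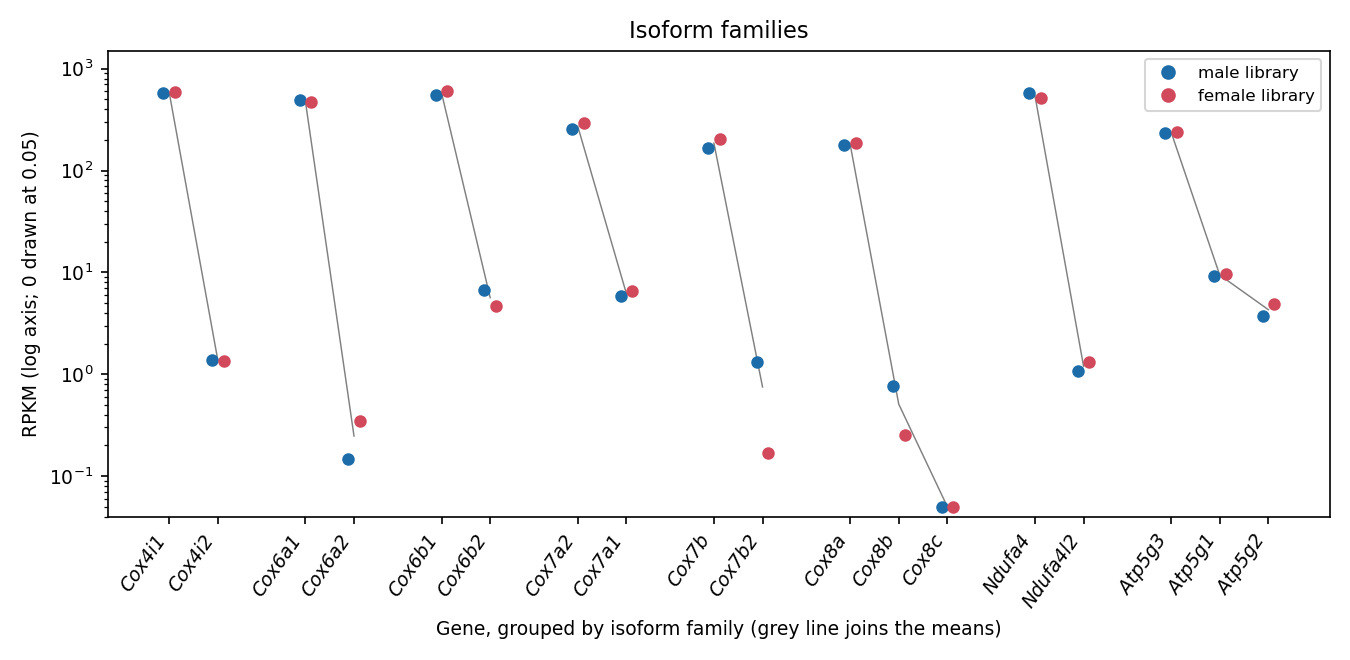
RPKM on a log axis of the genes of 8 isoform families in the male (blue) and the female (red) library, with a grey line joining the means and 0 drawn at 0.05. In each family the left gene lies well above the others, by 25.1-fold for Atp5g3 over Atp5g1 in the female library and 3308-fold for Cox6a1 over Cox6a2 in the male library.

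The ring genes of ATP synthase were also unequal, with Atp5g3 at 239 ± 3.80 RPKM, Atp5g1 at 9.41 ± 0.262 and Atp5g2 at 4.30 ± 0.803. The value of Atp5g1 depends on the length used, and the part of read placement in these values was not tested. Every 74-nt window of Atp5g2 (100%) and 93.9% of the coding windows of Atp5g1 had an exact copy elsewhere in the genome, against 2.86% of the coding windows of Atp5g3. The authors' exon length of Atp5g1 was 4775 nt, which takes in a long 3′ end, while its shortest transcript with the full coding sequence has 596 nt. Scaled to that transcript, Atp5g1 had 73.9 and 76.9 RPKM.

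Repeated sequence was more frequent among members than among other genes. Of the 85 members 13 (15.3%) had an exact copy elsewhere for at least 20% of the windows of their longest coding transcript, against 4.44% of the 11701 matched genes with a mean of at least 1 RPKM. They were Atp5g2, Atp5l (84.1%), Cox5b (48.0%), Atp5h (44.3%), Cox7a2l (43.5%), Ndufs5 (42.6%), Ndufb4 (41.1%), Uqcrb (38.3%), Ndufs3 (35.7%), Cox7c (25%), Atp5g1 (24.5%), Ndufa12 (22.1%) and Uqcr (21.1%). Leaving out the tissue isoforms, the 12 subunit genes with at least 20% of windows repeated had a median of 50.3 RPKM, and the 59 with less had a median of 156 RPKM. The 10 with at least 50% of their coding windows repeated had a median of 30.3 RPKM, and included Ndufab1, at 92.5%. These groups overlapped. Atp5h, with 56.1% of coding windows repeated, was at 224 RPKM, and Ndufa1, with none, at 20.3 RPKM. Across the 71 subunit genes Spearman's rho between level and the share of windows repeated was -0.14 for all windows and -0.23 for coding windows. Both are given as a description because the genes share both libraries. The part of lost reads in the low levels was not tested.

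**Figure D3:**
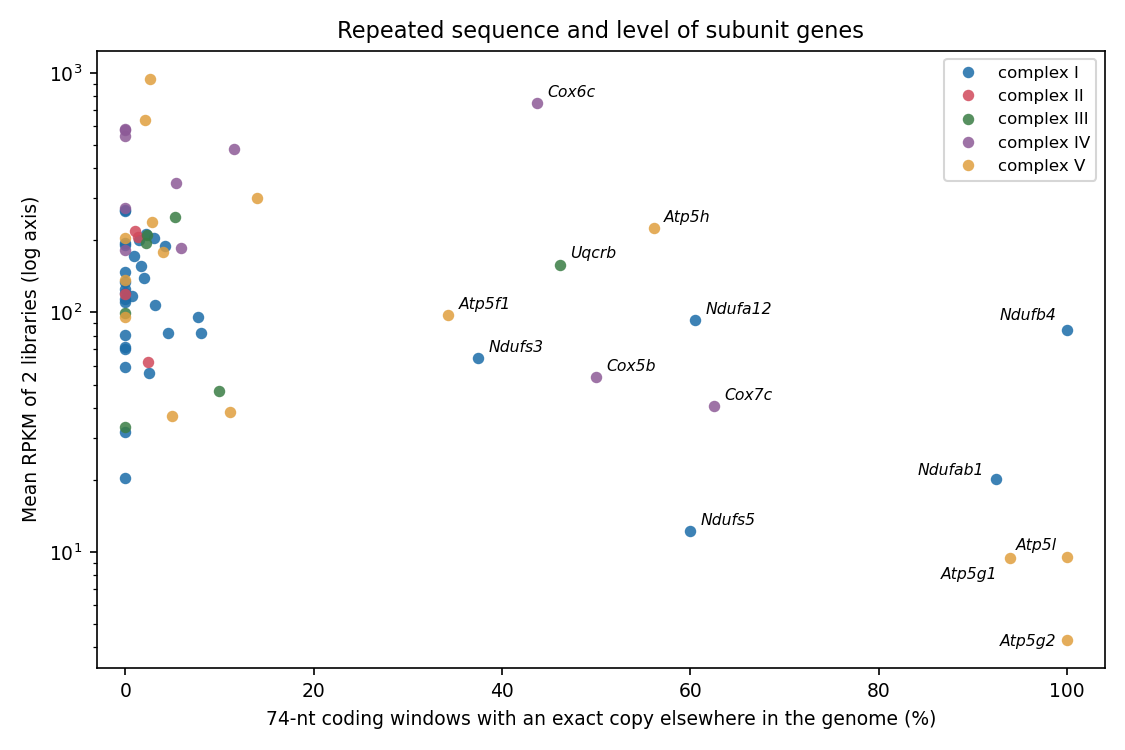
Mean RPKM of the 2 libraries on a log axis against the percent of 74-nt coding windows that have an exact copy elsewhere in the genome, for the 71 subunit genes that are not tissue isoforms, coloured by complex and named from 30% upwards. Atp5g2, Atp5l, Atp5g1, Ndufab1 and Ndufs5 sit low at the right, while Cox6c (43.8% repeated) and Atp5h (56.1%) have high levels.

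Exon length moved further values. For 6 members the authors' exon length was more than 2 times that of the shortest transcript with the full coding sequence, namely Atp5g1, Uqcrq, Ndufb8, Atp5j2, Ndufa3 and Atp5f1. On the length of that transcript Uqcrq, the lowest gene of complex III, would have 125 and 124 RPKM in place of 33.2 and 33.0, and Ndufb8 175 and 200 in place of 51.9 and 59.4. Reads from the longer transcripts are counted in these values as well. The opposite held for Ndufc1, Sdhc, Ndufs4 and Ndufb4, whose shortest full coding transcript was more than 2 times as long as the authors' exons. On that length Sdhc would have 44.9 and 42.9 RPKM in place of 122 and 116, below Sdhd, and Ndufs4, an accessory subunit of complex I, 28.2 and 29.9 in place of 68.5 and 72.6. Exons of 19 members overlap exons of another annotated gene, over at least 20% of the exon bases in Atp5o, Ndufb6, Cox5a and Ndufa13, and no strand-specific counting is described in the sources used here.

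The 6 members that are not subunits were lower than most subunits. The complex I assembly factors Ndufaf2 and Ndufaf1 had 39.3 ± 4.06 and 17.2 ± 2.27 RPKM. Cox7a2l, which links complexes III and IV in supercomplexes, had 74.1 ± 7.38 RPKM. Atp5sl, connected with complex I assembly, had 16.5 ± 0.959 RPKM and its paralog Atp5s 12.5 ± 1.94. Cox4nb, the neighbour of Cox4i1 and a member of the ER membrane protein complex rather than of the respiratory chain, had 12.7 ± 0.170 RPKM. Their median of 16.8 RPKM was near that of 21 assembly factors with other names, 14.8 RPKM, among which Cox17, a copper chaperone, was the highest at 75.6 and 60 RPKM and Nubpl the lowest at 1.54 and 1.74 RPKM.

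Of 5 subunits and partners of the complexes that the symbols miss, with a median of 85.7 RPKM, Atpif1, the inhibitor of ATP synthase, was the highest at 164 and 181 RPKM, and Cyc1, the cytochrome c1 of complex III, had 86.0 and 85.5 RPKM. Cycs, cytochrome c itself, was far lower at 3.62 and 4.71 RPKM. The 16 genes of the TCA cycle, which feeds the chain, and of pyruvate dehydrogenase (Pdha1, Pdhb and Dlat) had a median of 114 RPKM. Mdh2 was highest at 297 and 314 RPKM and Suclg2 lowest at 5.67 and 6.39. The 16 genes of glycolysis and lactate dehydrogenase (Ldha and Ldhb) had a median of 136 RPKM. They were led by Aldoc at 916 and 939 RPKM, and Gapdh was the lowest at 15.3 and 3.36 RPKM. Repeated sequence is not given here for the genes of these lists. The part of lost reads in the low values of Cycs and Gapdh was not tested. The 12 regulators of mitochondrial biogenesis were far lower, with a median of 7.47 RPKM, between the coactivator Ppargc1a at 15.5 and 16.1 RPKM and the transcription factor Nrf1 at 1.82 and 1.47 RPKM.

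Some promoters of the members hold the letters known to be bound by regulators of mitochondrial genes, which is why they are shown. The stretches come from RefSeq promoters of the GRCm38.p6 build, run 5′ to 3′ on the gene's strand and end before the start site, with the matched letters in capitals:
Cox6a1, NRF1: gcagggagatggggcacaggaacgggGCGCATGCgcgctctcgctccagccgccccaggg
Cox6b1, ETS: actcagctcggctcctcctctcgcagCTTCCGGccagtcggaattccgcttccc
Atp5j, YY1: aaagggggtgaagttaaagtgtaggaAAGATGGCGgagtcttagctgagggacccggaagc
They lie at chr5:115349087-115349146 (minus strand), chr7:30626115-30626168 (minus strand) and chr16:84835030-84835090 (minus strand). The Cox6b1 match is the reverse complement of the ETS letters. Promoters of 300 bases, 250 before and 50 after the start, were given for 69 members and searched on both strands for the NRF1 letters GCGCATGC, the ETS letters CCGGAAG, the YY1 letters AAGATGGCG and the Sp1 letters GGGCGG, which do not contain each other. The NRF1 letters were in 9 of 69 members (13.0%) and in 6.08% of 9505 genes with a mean of at least 1 RPKM. The YY1 letters were in 11.6% of members against 3.52%, and the ETS letters in 24.6% against 19.5%. The Sp1 letters were in 43.5% of members against 70.2%. Over all 27025 genes with a promoter in the table the shares were 3.05% (NRF1), 1.64% (YY1), 9.93% (ETS) and 38.2% (Sp1). In complex I, 5 of 32 members held the YY1 letters and 2 the NRF1 letters. In complex V, 3 of 16 held the NRF1 letters (Atp5k, Atp5l and Atp5g2) and 3 others the YY1 letters (Atp5j, Atp5j2 and Atp5sl). These are matches of letters, with no test, and do not say that a factor is bound.

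With 1 library of each sex there is no replicate check and no test, so a gene was counted as different where RPKM + 0.1 was higher in one of them by at least 25%, among genes with a mean of at least 1 RPKM. By this rule 7 of 81 members differed (8.64%), against 15.0% of the 11940 genes. Higher in the female library were 4 members, where 6.16% of all genes were, and higher in the male library were 3, where 8.86% of all genes were. Most of the members are abundant, and of all genes above 100 RPKM 7.25% differed, against 1 of 43 members at that level. The median difference of the members, female minus male, was 0.06 on the log2 scale, against -0.01 for all genes.

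Atp5k, which encodes subunit e in the membrane part of ATP synthase, was at 128 RPKM in the male library, from 2686 reads, and at 63.5 RPKM in the female, from 1216 reads, 2.01-fold higher in the male. Cox7c was at 29.9 RPKM from 968 reads in the male and at 51.1 RPKM from 1505 reads in the female library, 1.70-fold higher in the female. These were the only members past 1.5-fold (2.47%, against 3.49% of all genes). Also higher in the female library were Uqcrfs1 by 1.27-fold, Atp5l by 1.31-fold and Atp5g2 by 1.30-fold, and higher in the male were Ndufa5 by 1.31-fold and Cox6b2 by 1.43-fold. Just short of the limit were Atp5s (log2 difference 0.32) and Cox7b (0.30) on the female side and Uqcrb (-0.30) on the male side. Next on the male side came Ndufa3 at -0.24. Atp5b, Atp5a1, Cox4i1, Sdha and Uqcrc1 all lay within 0.08 of 0 on the log2 scale.

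In complex I, 23 of 34 subunit genes (67.6%) had the larger value in the female library. So did 64.2% of all members tested, against 48.7% of all genes tested. In complex I 1 subunit gene, Ndufa5, was past the 25% limit, on the male side. Complex II had none past the limit, complex III 1 of 7, complex IV 2 of 15 and complex V 3 of 15, in both directions in the last 2. Of all genes 15.0% were past it. Differences were more frequent in short and in repeated genes. Atp5k has the shortest exon length of the members (292 nt), and of the 97 genes under 500 nt 33% were past the limit, as were 3 of 12 members under 500 nt. Cox7c, Atp5l and Atp5g2 are repeated in at least 20% of windows. Of 13 members with such repeats 3 differed, and of the 68 others 4, while over all genes the shares were 19.3% and 14.7%. The part of length and repeats in these differences was not tested, and sex, animal and library cannot be told apart.

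**Figure D4:**
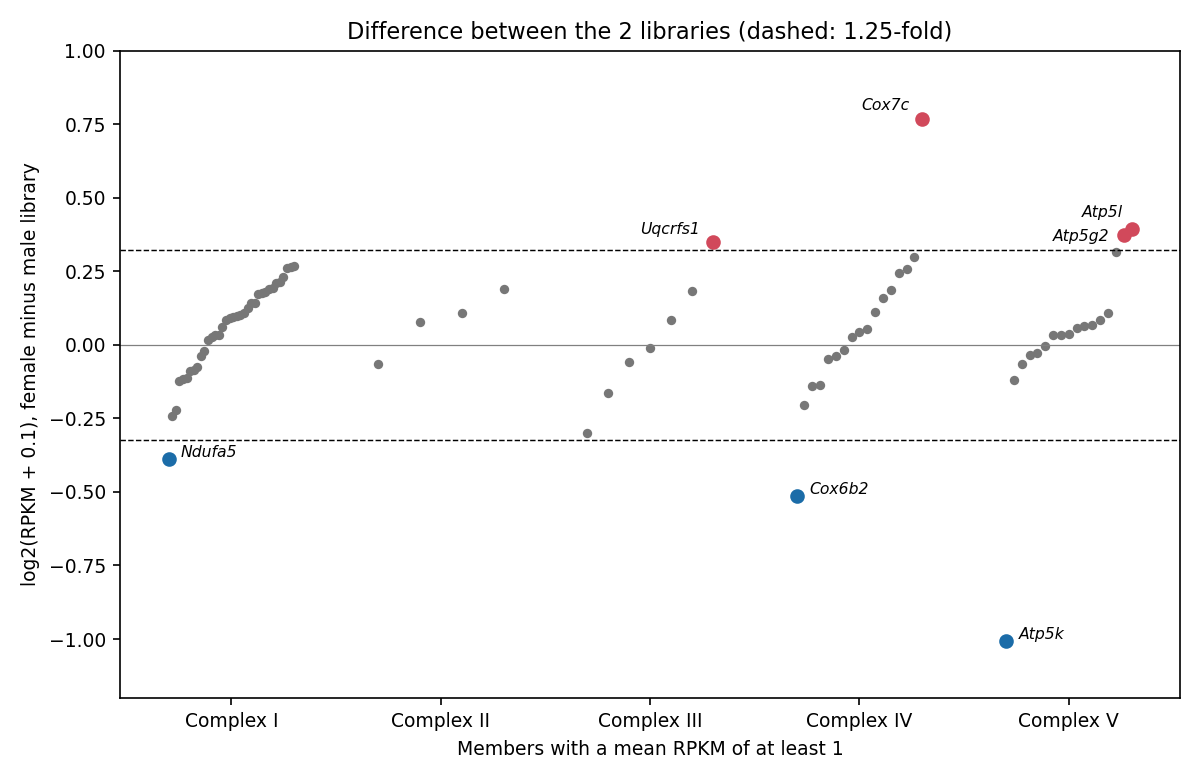
Difference in log2(RPKM + 0.1), female minus male library, of the 81 members with a mean of at least 1 RPKM, ordered within each complex, with dashed lines at a 25% difference. Named in red are 4 genes higher in the female library and in blue 3 higher in the male library, with Cox7c (0.77) and Atp5k (-1.01) farthest from 0.

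The cassette exons of the members were nearly always either in or out. The inclusion rate was the mean count of both inclusion junctions, divided by its sum with the count of the skipping junction, for exons with at least 10 junction reads in each library. These were 44 exons in 31 genes, some of which overlap and share a junction. By their mean rate 24 were included at over 90%, 15 at under 10%, and 5 (11.4%) lay between, against 27.4% of the 9396 exons covered in all genes. Exons at 100% in both libraries numbered 15, among them the 63-nt exon of Atp5h, the 99-nt exon of Atp5k, the 143-nt exon of Cox6a1 and the 150-nt exon of Uqcrc2. They are at 100% because no skipping read was counted. In the 191-nt exon of Ndufa13 and the 193-nt form of an Ndufb5 exon, 1 inclusion junction had no read in either library. For these the rate does not say that this form of the exon was used. Under 1% in both were 11, among them the 167-nt exon of Atp5f1 with no inclusion read in either library.

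Of the 5 exons between 10% and 90%, 4 were in genes that are not subunits, with both forms of 1 Atp5s exon among them. The genes that are not subunits held 7 covered exons and the subunit genes 37. The 98-nt exon of the assembly factor Ndufaf2 was included at 17.6% (95% Wilson interval 11.4 to 26.2) in the male and 20.5% (14.2 to 28.7) in the female library. The 89-nt exon of Atp5sl was at 15.9% (8.44 to 27.9) and 10.7% (5.0 to 21.5). The 100-nt exon of Atp5s was at 56.2% (39.3 to 71.8) and 48.5% (35.0 to 62.1), and a 90-nt form of the same exon at 41.7% and 36.7%. In each of these the intervals of the libraries overlap. The fifth was a 115-nt form of an exon of the subunit gene Ndufa5, at 49.7% and 69.4%. The 90-nt and the 115-nt form each have 1 inclusion junction with no read in either library, and the longer forms of the same exons hold the reads of that side. Intervals cover counting error only, because reads are not independent molecules.

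The exons that show these choices are printed 5′ to 3′ from the NCBIM37 genome, with the exon in capitals and the 2 intronic bases on each side in lower case:
Ndufa5, 117 nt: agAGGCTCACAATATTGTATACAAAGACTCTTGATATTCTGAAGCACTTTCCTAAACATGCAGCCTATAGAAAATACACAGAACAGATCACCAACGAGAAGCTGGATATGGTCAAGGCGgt
Ndufaf2, 98 nt: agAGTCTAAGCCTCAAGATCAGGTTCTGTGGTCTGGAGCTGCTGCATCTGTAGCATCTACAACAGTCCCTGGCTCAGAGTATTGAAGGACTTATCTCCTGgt
The Ndufa5 exon, chr6:24472659-24472775 on the minus strand, is coding and keeps the reading frame. It was included at 94.7% (92.8 to 96.1) in the male and 97.4% (95.5 to 98.4) in the female library. Its inclusion junctions were uneven, with 1315 and 77 reads in the male and 897 and 59 in the female library, so the rate depends on which one is read. The Ndufaf2 exon, chr13:108856388-108856485 on the minus strand, has no annotated exon end in GENCODE but lies between coding exons and is bordered by ag and gt. Put into the coding transcript, it would end the reading frame after 309 nt in place of 507.

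The other rarely used exons were read in the same way. Of the 15 exons included at under 10%, 12 could be placed inside a coding sequence as insertions, and all 12 would shorten the reading frame. The 142-nt exon of Cox4i1 would end it at 198 nt in place of 510, and the 130-nt exon of Atp5j2 at 258 nt in place of 267. The 97-nt exon of Ndufv2 would end it at 57 nt in place of 747. This Ndufv2 exon had no read on 1 inclusion junction in either library and only 4 and 5 reads on the other. For it the reads do not show that the whole exon was inserted. Of the 24 exons included at over 90%, 17 could be left out of a coding transcript, where 7 omissions keep the frame and remove only the exon. The other 10 shift the frame, and the sequence that results would be shorter in all 10. Exons of other genes were not read in this way, so these counts do not set the members apart. Only 15 of the 44 exons (34.1%) have a length divisible by 3, against 46.3% of all covered exons.

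Atp5c1 has an exon whose inclusion changes only the very end of the coding sequence. Its 37-nt exon, chr2:9978397-9978433 on the minus strand, is known to be skipped in muscle. The coding ends with and without it differ in 1 codon, with the bases that follow the shared part in capitals:
Atp5c1 with the exon: atctctggggctgctgctctGGATTAA
Atp5c1 without the exon: atctctggggctgctgctctGTAA
The coding sequence has 897 nt with the exon and 894 nt without it. The exon was included at 95.9% (94.5 to 96.9) in the male library, from 1020 and 1063 inclusion and 45 skipping reads, and at 94.8% (93.2 to 96.0) in the female library, from 922 and 923 inclusion and 51 skipping reads. The form without the exon was thus a small share in both libraries, and the intervals overlap.

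**Figure D5:**
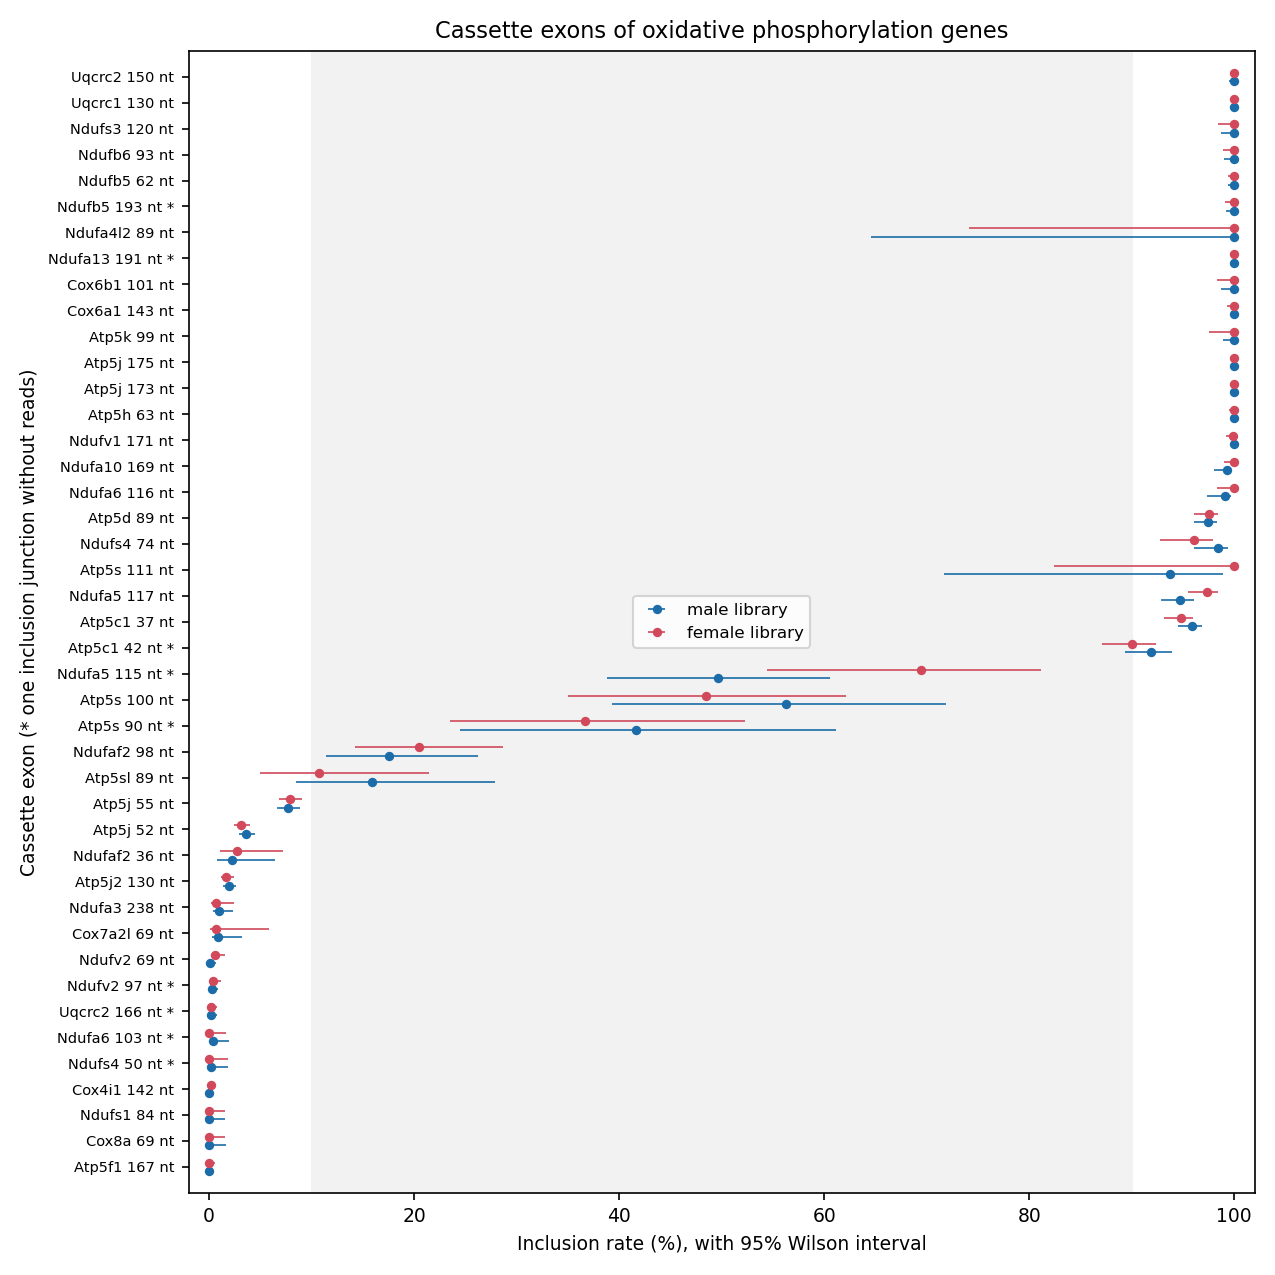
Inclusion rate in percent of covered cassette exons in the male (blue) and the female (red) library with 95% Wilson intervals, ordered by mean rate, with the range from 10% to 90% shaded and an asterisk where 1 inclusion junction has no read in either library. Exons gather at both ends, and the shaded range holds Ndufaf2, Atp5sl, both forms of the Atp5s exon and the 115-nt form of Ndufa5.

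No member exon differed between the libraries by a two-sided Fisher's exact test on the authors' inclusion and skipping counts (Benjamini-Hochberg over all 9396 covered exons, FDR of at most 0.1), where 4.26% of all covered exons did. At an unadjusted P under 0.05 there were 2 of 44 (4.55%), against 12.3% of all covered exons. The first was the 142-nt exon of Cox4i1, with 2 inclusion and 2053 skipping reads in the male and 12 and 1974 in the female library (exact P = 0.00646, adjusted P = 0.128). The second was the 117-nt exon of Ndufa5 (exact P = 0.0315, adjusted P = 0.321). Unlike the inclusion rate, the inclusion counts of the test include reads on the exon body. For the Cox4i1 exon the 2 inclusion reads of the male library were both of this kind. The female library had 3 reads on each inclusion junction and 6 on the exon body. The test compares 2 libraries and not the sexes. The median gap between the libraries was 0.143 percentage points over the member exons and 1.08 over all covered exons, which had fewer junction reads (a median of 161 in both libraries together, against 1482 for the members).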

How the data were processed

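Per the methods, the authors cut the reads of 2 WSC RNA-seq libraries to 74 nt before aligning to mm9 and exon junctions (OLego), kept unambiguous reads and counted them with Quantas. The deposited gene tables hold read counts and the authors' RPKM (counts over exon length and total reads on genes). The deposited exon tables hold counts of reads on exon bodies and junctions, with no normalization.

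Members were taken by symbol and joined by Entrez ID. Members and gene lists were chosen with earlier results of these data known. Classes follow textbook roles. Named were all isoform families, the highest and lowest subunit and the core subunits of each complex, the 5 largest differences each way, members repeated in at least 20% of windows, non-subunits, exons at 10% to 90% or called, and the ends of each list.

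Gene differences used log2(RPKM + 0.1) and a mean of at least 1 RPKM. Exons needed 10 junction reads per library. Fisher's exact tests (SciPy 1.17.1) were tested on simulated data. Repeats were exact copies in NCBIM37, the same build as mm9, of 74-nt windows taken every 10 nt from the longest GENCODE vM1 coding transcript. Exon positions were set by matching annotated exon ends. The rescaling used edgeR 4.0.16 and DESeq2 1.42.0 on the counts. The labels give the groups. The paper describes the 2 libraries as biological replicates, but they come from 1 mouse of each sex, so the SD holds sex, animal and library together. Some genes are counted in the totals but not reported here by name or drawn in the plots of levels and exons.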

Additional observations from a re-analysis of the deposited data

How the results depend on the processing

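No paired analysis was possible because both RNA-seq libraries form 1 group and share no replicate number with another. Members past the 25% limit numbered 7, and 6 to 10 with TMM or DESeq2 scaling, a pseudocount of 1, no filter or subunits only. With either scaling they were 9.88% of members against 14.9% of all genes. The shares were 7.41% against 10.3% with the pseudocount, and 11.8% against 20.8% without a filter. At 1.5-fold there were 2 (2.47%), by construction of the limit, against 3.49% of all genes. Without members repeated in at least 20% of windows, 4 were past the 25% limit (5.88%), against 14.7% of all genes under that share. This setting was chosen after seeing the data, like the length settings and the silent junctions below. Atp5s passed the limit with either rescaling (log2 0.33), and Atp5g2 fell short with a pseudocount of 1 (0.31). Median levels ranged, leaving out 1 library, from 109 to 115 RPKM (complex I), 157 to 168 (II), 142 to 174 (III), 53.5 to 54.1 (IV) and 136 to 138 (V), and over all members from 107 to 114. Without repeated members they were 119 (I), 195 (III), 182 (IV) and 179 RPKM (V), and without tissue isoforms and paralogs 347 (IV) and 179 (V). Scaled to the shortest full coding transcript they were 99.1 (I), 129 (II), 49.0 (IV) and 206 RPKM (V), and per length of single-copy windows 119 (I), 199 (III), 103 (IV) and 172 (V). Thus the place of complex IV among the complexes depends on the tissue isoforms and on the repeated members. With the tissue isoforms kept, its median rose from 53.8 to 182 RPKM without the repeated members. Exons at 10% to 90% numbered 5 to 6 under the planned settings, 5 without either library, and 3 without exons with a silent junction. Called member exons stayed at 0 under each alternative, where 2.65% to 4.47% of all exons tested were called. Of the member exons, 2 to 4 had an unadjusted P under 0.05 by Fisher's exact test. Depth limits the tissue isoforms, several with under 20 reads.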
